A study of Mus musculus with 16 samples.

Results

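Fc receptors are the surface proteins by which leukocytes bind the constant part of antibodies. Most of them carry no signal of their own. They pair with small membrane chains whose cytoplasmic tails hold an immunoreceptor tyrosine-based activation motif (ITAM), in which a pair of tyrosines is phosphorylated by Src family kinases and then docks the kinase Syk. TREM receptors use the same kind of chain, while inhibitory receptors carry an inhibitory motif (ITIM) that recruits phosphatases. These genes are known as genes of myeloid and other blood cells, and Syk is also used outside them.

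The set described here holds 9 genes, chosen by symbol out of 54532 genes in the tables: the activating receptors for IgG Fcgr1, Fcgr3 and Fcgr4, the inhibitory receptor Fcgr2b, the signaling chains Fcer1g and Tyrobp, the receptors Trem1 and Trem2, and the kinase Syk. They were measured by bulk RNA-seq in 16 libraries of pulmonary ECs. The first experiment compared WT male C57/BL6J mice aged 8 weeks that received saline (n = 4 libraries) or LPS at 10 mg/kg (n = 6 libraries) into the trachea. The second compared Fgfr1 loxP/loxP mice (n = 3 libraries) with Fgfr1 iΔEC/iΔEC mice (n = 3 libraries), labelled wt and cko, and all of these mice received LPS at 2 mg/kg. LPS (lipopolysaccharide) comes from the wall of Gram-negative bacteria and is sensed by innate immune receptors. Both genotypes carried loxP sites in Fgfr1 and had tamoxifen, and the deletion was driven by an inducible Cre under the VE-cadherin promoter, so it concerned endothelial cells. Lungs were taken at 24 h in all groups, digested, depleted of cells bearing CD45 (encoded by Ptprc) and enriched for cells bearing CD31 (encoded by Pecam1) with magnetic beads.

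Each saline library held 13478726 to 18807007 reads on genes and each LPS library 17840221 to 19043015. These numbers were 15969575 to 17002788 in the loxP/loxP libraries and 16642177 to 16943522 in the iΔEC/iΔEC libraries. Levels are given as FPKM, which corrects fragments per gene for library size and gene length, so that genes can be compared per length. The tables of the first and second experiment were normalized separately, and levels from both are only set side by side. The markers of the sorted cells bore out the label in part. Pecam1 lay at 339 to 516 FPKM in the saline group and at 234 to 444 in the LPS group. Ptprc, the gene of the protein used for depletion, was read in every library, at 3.53 to 10.99 FPKM in the saline group, 22.1 to 52.7 in the LPS group, 14.0 to 23.2 in loxP/loxP mice and 10.1 to 21.8 in iΔEC/iΔEC mice. Fgfr1 was at 2.90, 2.91 and 2.59 FPKM in the loxP/loxP libraries and at 0.683, 1.41 and 1.15 in the iΔEC/iΔEC libraries, in the direction that the labels give. Saline 1 stood apart from saline 2 to 4 in the 9 genes and in neutrophil markers. It had the fewest reads of the 4 and the highest saline sum for 8 of 10 marker lists, the endothelial (5696 FPKM against 3446 to 4339) and epithelial (2447 against 946 to 1849) lists among them. The values of the 9 genes are given with and without it.

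On GRCm38, 4 of the genes lie close together on chromosome 1: Fcgr2b at chr1:170958617-170976547 on the minus strand, Fcgr4 at chr1:171018920-171029761 on the plus strand, Fcgr3 at chr1:171051174-171064935 on the minus strand and Fcer1g at chr1:171229572-171234365 on the minus strand. Trem1 (chr17:48232768-48246924) and Trem2 (chr17:48346401-48354147) are neighbours on the plus strand. Fcgr1 is at chr3:96282909-96293969 on the minus strand, Tyrobp at chr7:30413760-30417585 and Syk at chr13:52583173-52648792, both on the plus strand. All 9 are annotated as protein-coding.

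The motifs that tie the set together are shown here as coding sequence of GENCODE M21 transcripts, written along the coding strand, because the signaling chains and the inhibitory receptor act through them. Capitals mark the codons for tyrosine and for the leucine or isoleucine that follows it. An ITAM was searched as tyrosine, 2 codons, leucine or isoleucine, 6 to 12 codons, and the same once more, and it was found in the coding sequences of 2 of the 9 genes, Tyrobp and Fcer1g. In Tyrobp (Tyrobp-201, 114 codons) it takes coding bases 274 to 318, exonic sequence that spans an intron at chr7:30415670-30417382. In Fcer1g (Fcer1g-201, 86 codons) it takes coding bases 193 to 237 and spans an intron at chr1:171229889-171230072. The inhibitory motif was searched only in Fcgr2b, as isoleucine, valine, leucine or serine, any codon, tyrosine, 2 codons and leucine or valine (Fcgr2b-201, 340 codons), where it takes coding bases 949 to 966 within an exon, chr1:170961071-170961088.
Tyrobp ITAM: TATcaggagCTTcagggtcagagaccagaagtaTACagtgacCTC
Fcer1g ITAM: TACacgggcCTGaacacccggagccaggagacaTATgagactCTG
Fcgr2b ITIM: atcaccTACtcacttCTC

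The 9 genes were picked with their values in the saline and LPS libraries known. Their differences between these groups are therefore a description and carry no test. In LPS, 8 of the 9 genes lay above every saline library and none lay below, where over the 14893 genes tested 22.7% lay above in this way. Nothing about the set is read from that share. The median difference of the 9 genes was 3.99 in log2(FPKM + 1), against 0.01 over all genes tested. In bulk RNA, more cells of a type and more RNA per cell cannot be told apart. All 9 passed the filter of a mean of 0.5 FPKM over the 10 libraries, but Trem2 passed it only through the LPS libraries.

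**Figure D1:**
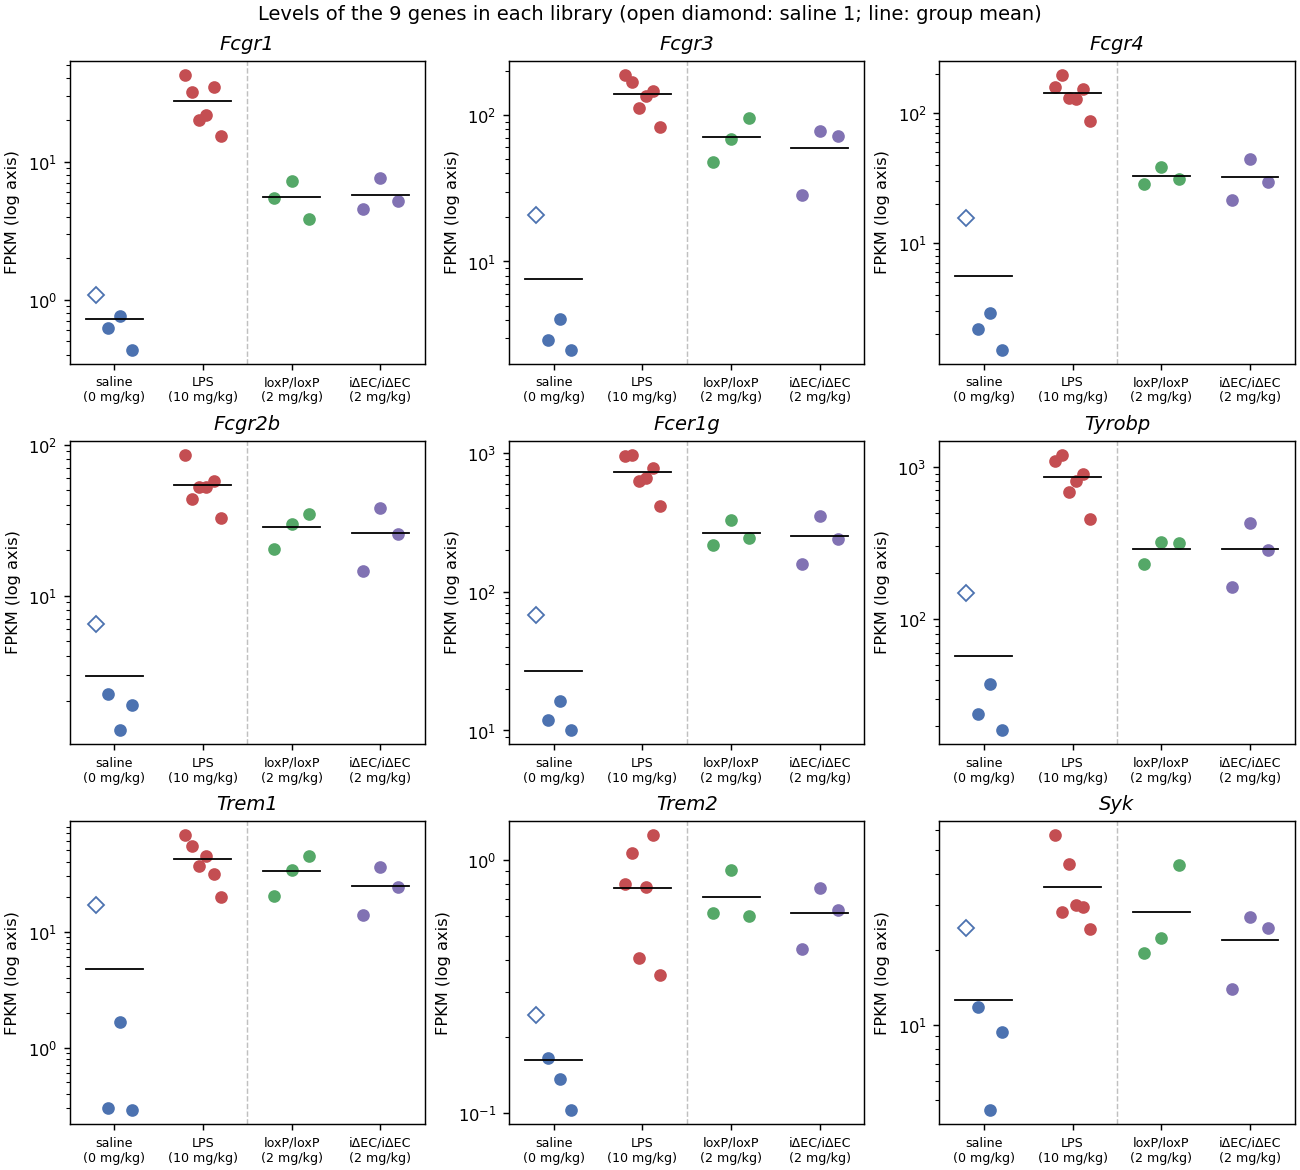
FPKM of each of the 9 genes in every library, on a log axis that differs between panels; points are libraries, lines are group means, the open diamond is saline 1, and the dashed line divides tables that were normalized separately. Every LPS library lies above every saline library except for Syk, where saline 1 (24.4 FPKM) lies above LPS 6 (24.1 FPKM).

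Fcgr1 encodes the high-affinity receptor for IgG. It was read at 1.08, 0.628, 0.757 and 0.432 FPKM in saline 1 to 4, on 22 to 37 reads, and in the LPS group at 15.4 at the lowest, 26.7 at the median and 42.4 at the highest. The groups were far apart, and saline 1 stood out less here than for most of the set. The difference was 3.99 (SE 0.25) in log2(FPKM + 1), and 4.08 (SE 0.28) without saline 1. The ratio of means was 38.2-fold, the largest among the 9 genes with all 10 libraries. Without saline 1 it was 45.6-fold, behind Fcgr4 (65.1), Fcer1g (57.4) and Trem1 (56.5). The difference was 5.05 with a pseudocount of 0.1 FPKM and 5.27 by limma-voom on reads recovered from the FPKM values. Fcgr3, a receptor of lower affinity shared by neutrophils, macrophages and NK cells, was at 20.7, 2.92, 4.06 and 2.49 FPKM in saline 1 to 4. In the LPS group it was at 82.9, 140.3 and 187 (lowest, median, highest). Saline 1 was closer to the lowest LPS library than to the other saline libraries on a ratio scale, and the groups did not overlap. The Fcgr3 difference was 4.43 (SE 0.45), and 5.03 (SE 0.24) without saline 1.

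Fcgr4, a receptor of intermediate affinity on neutrophils and monocytes, was at 15.5, 2.16, 2.90 and 1.497 FPKM in saline 1 to 4 and at 87.0, 142 and 197 in the LPS group (lowest, median, highest). Its order of libraries within the saline group was that of Fcgr3. The Fcgr4 difference was 4.87 (SE 0.45), and 5.47 (SE 0.24) without saline 1. Fcgr2b, which inhibits where the other IgG receptors activate, was higher in LPS as they were. It was at 6.44, 2.22, 1.29 and 1.88 FPKM in saline 1 to 4 and at 32.8, 52.4 and 85.4 in the LPS group (lowest, median, highest). The Fcgr2b difference was 3.89 (SE 0.32), 4.25 (SE 0.25) without saline 1 and 4.47 by limma-voom.

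The signaling chains had the highest levels of the set. Fcer1g, the common chain of the activating IgG receptors and of the IgE receptor, was at 68.2, 11.997, 16.3 and 10.1 FPKM in saline 1 to 4 and at 413, 717 and 969 in the LPS group (lowest, median, highest). Its difference of 5.12 (SE 0.46) was the largest of the 9 on this scale, and it was 5.71 (SE 0.27) without saline 1. Tyrobp, the chain of the TREM receptors and of several NK cell and myeloid receptors, was at 148.7, 24.1, 37.6 and 18.8 FPKM in saline 1 to 4. In the LPS group it was at 453, 848 and 1192 (lowest, median, highest). Saline 1 held 5.54 times the mean Tyrobp level of saline 2 to 4, and still lay below every LPS library. The Tyrobp difference was 4.30 (SE 0.50), and 4.93 (SE 0.32) without saline 1.

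Trem1 and Trem2 both signal through Tyrobp. Trem1, a receptor of neutrophils and monocytes that amplifies inflammatory responses, was at 16.8, 0.302, 1.66 and 0.288 FPKM in saline 1 to 4. In the LPS group it was at 19.6, 40.7 and 68.0 (lowest, median, highest). Of the 9 genes Trem1 depended most on saline 1, which held 22.3 times the mean of saline 2 to 4 and came close to LPS 6. The Trem1 difference was 3.76 (SE 0.66), and 4.62 (SE 0.37) without saline 1, 4.75 with a pseudocount of 0.1 FPKM and 5.22 by limma-voom on recovered reads. The ratio of means moved from 8.91-fold to 56.5-fold. Trem2, a lipid-sensing receptor of macrophages and microglia, was barely read. It was at 0.245, 0.164, 0.136 and 0.103 FPKM in saline 1 to 4, on 10 to 18 reads, and at 0.350, 0.791 and 1.25 in the LPS group (lowest, median, highest), on 33 to 111 reads. Its difference was 0.59 (SE 0.16) with the pseudocount of 1 FPKM, 1.66 with a pseudocount of 0.1 FPKM and 2.16 by limma-voom on recovered reads, and the ratio of means was 4.79-fold.

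Syk, the kinase that docks on phosphorylated ITAMs, was at 24.4, 11.8, 4.57 and 9.38 FPKM in saline 1 to 4 and at 24.1, 29.9 and 57.3 in the LPS group (lowest, median, highest). It was the only gene of the 9 whose groups overlapped, through saline 1. The Syk difference was 1.58 (SE 0.37), and 1.95 (SE 0.31) without saline 1, when every LPS library lay above the remaining saline libraries for all 9 genes. The ratio of means for Syk was 2.83-fold, the lowest of the set.

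**Figure D2:**
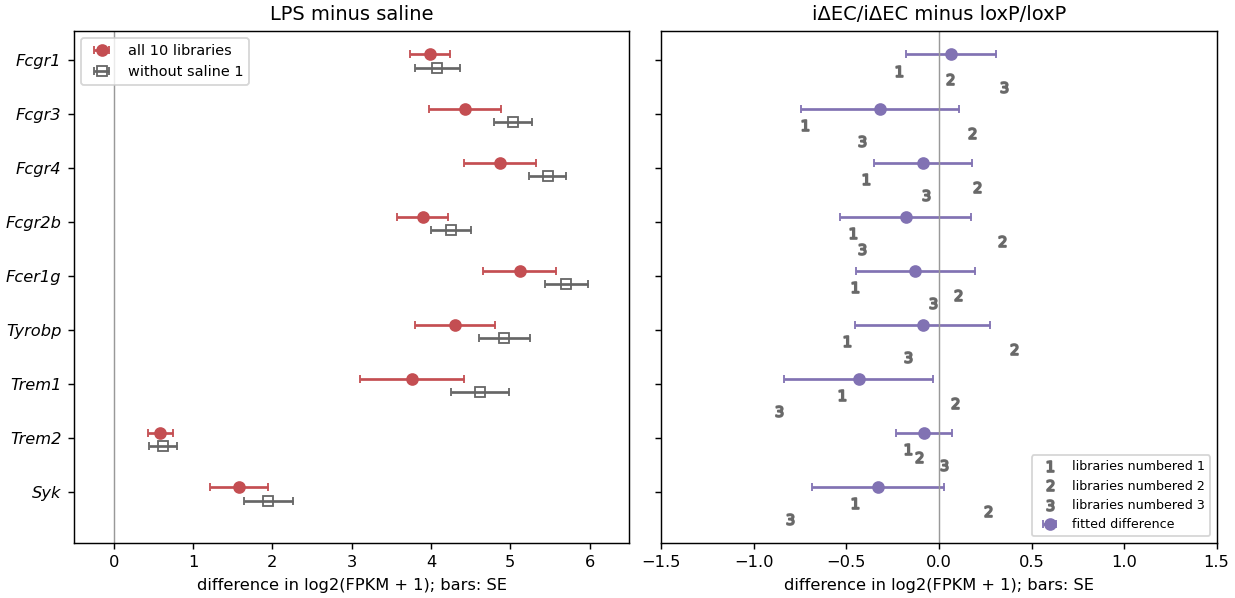
Differences in log2(FPKM + 1) of the 9 genes with standard errors, LPS minus saline at left (circles with all 10 libraries, squares without saline 1) and iΔEC/iΔEC minus loxP/loxP at right, where the digits 1, 2 and 3 are the differences between libraries of the same number; the horizontal scales differ. Differences at left run from 0.59 (Trem2) to 5.12 (Fcer1g) and all are larger without saline 1, while those at right run from -0.43 (Trem1) to 0.06 (Fcgr1).

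Some libraries were extreme for the whole set. Saline 1 was the highest saline library for 9 of the 9 genes, and its level was 1.78 times (Fcgr1) to 22.3 times (Trem1) the mean of saline 2 to 4. LPS 6 was the lowest LPS library for 9 of the 9, while the highest was LPS 1 for 5 genes, LPS 2 for 3 and LPS 5 for 1. The lowest saline library was saline 4 for 7 genes and saline 3 for Fcgr2b and Syk. Saline 1 was also the highest saline library, and LPS 6 the lowest LPS library, for the summed pan-leukocyte, neutrophil and monocyte markers described further on, and the part of these in the levels was not tested.

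The order of the genes by mean level changed between groups mainly for Syk. Tyrobp and then Fcer1g led in all 4 groups. With saline their means were 57.3 ± 61.4 and 26.6 ± 27.8 FPKM (SD, n = 4), against 852 ± 270 and 734 ± 213 (SD, n = 6) with LPS. Next after these chains in the saline group came Syk (12.5 ± 8.46 FPKM, SD, n = 4), followed by Fcgr3 (7.55 ± 8.81), Fcgr4, Trem1, Fcgr2b, Fcgr1 and Trem2. Neighbours from Syk to Fcgr2b did not differ beyond this spread. In the LPS group Fcgr4 (142 ± 36.7 FPKM, SD, n = 6) and Fcgr3 (138 ± 37.7) came next with overlapping ranges, then Fcgr2b (53.9 ± 17.7), Trem1 (42.4 ± 17.2), Syk (35.6 ± 12.6) and Fcgr1 (27.6 ± 10.3), each overlapping its neighbour in the order. Trem2 was last in every group, with no overlap. In loxP/loxP and iΔEC/iΔEC mice Fcgr3 came next after the chains (70.7 ± 23.9 and 59.2 ± 26.8 FPKM, SD, n = 3 each), and Fcgr1 came last before Trem2. Fcgr4, Fcgr2b, Trem1 and Syk lay between with overlapping ranges.

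Ratios of 2 genes within a library do not depend on how the library was scaled, and they showed that the genes did not all keep proportion. Tyrobp over Fcer1g was 2.09 ± 0.19 (SD, n = 4, range 1.87 to 2.31) in the saline group and 1.15 ± 0.065 (SD, n = 6, range 1.07 to 1.23) in the LPS group. Saline 1 was at 2.18 and thus with the other saline libraries in this ratio, although its levels were raised. The same ratio was 1.11 ± 0.17 in loxP/loxP mice and 1.14 ± 0.10 in iΔEC/iΔEC mice (SD, n = 3 each). Fcgr3 over Fcgr4 was 1.44 ± 0.15 in the saline group (range 1.33 to 1.66) and 0.974 ± 0.13 in the LPS group (range 0.844 to 1.19), with no overlap. It was 2.17 ± 0.77 in loxP/loxP mice and 1.82 ± 0.54 in iΔEC/iΔEC mice. Fcgr4 over Fcgr2b, an activating over the inhibitory receptor, overlapped between saline (0.797 to 2.41) and LPS (1.85 to 4.54). Fcgr1 over Fcgr2b overlapped as well, at 0.168 to 0.589 and 0.382 to 0.731. Trem1 over Trem2 ran from 1.83 to 68.6 in the saline group, where saline 1 held the highest value, and from 25.0 to 89.2 in the LPS group. No test was made of these ratios.

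**Figure D3:**
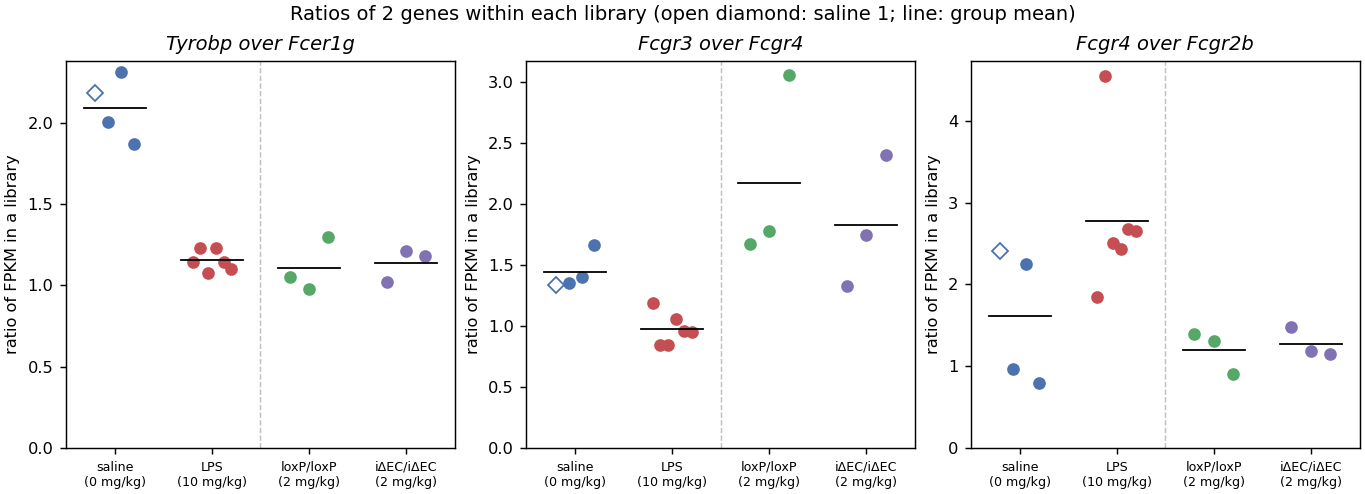
Ratios of FPKM of 2 genes in each library, with group means as lines and saline 1 as an open diamond; each vertical axis starts at 0, and the dashed line divides the separately normalized tables. Tyrobp over Fcer1g lies at 1.87 to 2.31 in the 4 saline libraries and at 1.07 to 1.23 in the 6 LPS libraries, and Fcgr4 over Fcgr2b overlaps between these groups.

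Reads shared between paralogs bear on the IgG receptors. Of the 50-base words in transcripts of Fcgr3, 9.6% (166 of 1733) also occur in Fcgr2b, and 6.9% of those of Fcgr2b (395 of 5685) occur in other genes. The genes sharing most with Fcgr2b were Fcgr3 and, as the reverse complement, Gm38204 and Gm47409. The other 7 genes shared 0.0%. Fcgr2b overlaps Gm38204 on the opposite strand over 3175 bases, and Trem1 overlaps a processed pseudogene on the opposite strand over 2431 bases. Strandedness is not given in the sources used here, so reads of Gm38204 and of Fcgr2b cannot be told apart where they overlap, while the transcripts of Trem1 share 0 of 2995 words with any other gene.

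The genes whose pattern was most like each of the 9 over the 10 saline and LPS libraries were sought as the smallest root mean square difference of log2(FPKM + 1) after centring each gene on its mean. The values are those on which the set was chosen, so the distances are a description. For 3 of the 9 genes the nearest gene was another member. Fcgr3 and Tyrobp were nearest to each other (0.149), and Fcer1g was the nearest gene to Fcgr4 (0.154). Fcer1g itself was nearest to Trem3 (0.132), another TREM receptor that uses Tyrobp, then to Fcgr4 and to Slc11a1 (0.207). Fcgr1 was nearest to Rab32 (0.186), Cd68 (0.190) and Cotl1 (0.199), and Fcgr2b to Ms4a6c (0.191), Ctss (0.201) and Cybb (0.223). Tyrobp was followed by C5ar1 (0.239) and Cebpb (0.251). Trem1 had more distant neighbours, Ccr1 (0.247), Slpi (0.318) and Slc16a3 (0.339). Syk was nearest to Lat2 (0.165), a transmembrane adaptor of the same pathway, Parvg (0.203) and Sorl1 (0.212). The neighbours of Trem2, Gm20075 (0.0716), Prmt7 (0.0919) and Faim (0.101) likewise differed little between the groups on this scale.

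The promoters of the set were read for GAGGAA, the purine-rich core bound by ETS factors such as PU.1, which many myeloid genes carry. RefSeq promoter entries on GRCm38.p6 matched 8 of the 9 genes with 10 entries, and Tyrobp had no entry. GAGGAA lay on either strand within 250 bases before the start in 7 of the 10 entries, from 6 genes (Fcgr1, Fcgr3, Fcgr4, Syk, Trem1 and Trem2), and in 23.3% of all 32851 promoter entries (7639). Entries of 1 gene can overlap, as those of Fcgr3 do. For the activating receptors Fcgr1 (chr3:96293970-96294029, minus strand) and Fcgr4 (chr1:171018866-171018925, plus strand), the last 60 bases before the RefSeq start are shown. Capitals mark TTCCTC, the reverse complement of GAGGAA. Both were chosen as Fc receptors with a single promoter entry and the word within these 60 bases. The match in both thus follows from the choice. The RefSeq starts are not always the ends of the gene spans given above. The Fcgr4 window reaches 6 bases into its span, and the starts used for Fcgr2b, Fcgr3, Fcer1g and Syk also lie inside theirs. A match describes letters and not a bound site.
Fcgr1 promoter: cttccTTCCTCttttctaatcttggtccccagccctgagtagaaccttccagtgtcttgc
Fcgr4 promoter: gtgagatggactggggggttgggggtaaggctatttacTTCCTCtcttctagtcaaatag

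Markers of all leukocytes, of neutrophils and of monocytes and macrophages moved with the 9 genes, while those of B cells were called lower. The pan-leukocyte list was called higher in LPS for 6 of 6 genes (median difference 2.83), with a summed level of 227, 156, 76.5 and 138 FPKM in saline 1 to 4 and of 641 to 1554 in the LPS group. Coro1a was its most abundant gene. The neutrophil list was called higher for 6 of 8 genes (median 2.49), and for 7 of 8 without saline 1 (median 3.04). Its summed level was 1382, 71.4, 309 and 77.4 FPKM in saline 1 to 4, so saline 1 lay above LPS 6 (1285), and it ran to 6628 in the LPS group. S100a9 was its most abundant gene, and Ly6g, which defines mouse neutrophils, was listed at 0 in saline 4. The monocyte and macrophage list was called higher for 7 of 8 genes (median 3.47), from 47.0, 23.6, 27.4 and 22.2 FPKM in saline 1 to 4 to 333 to 742 in the LPS group, where Csf1r led in every library. In the saline group Csf1r led in saline 1 and Cd68 in the others, and Marco was listed at 0 in saline 1. LPS 6, the lowest LPS library for the 9 genes, was also the lowest for these 3 lists. The part of such cells in the levels of the 9 genes was not tested.

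Most lists of other cells were not called higher, and the platelet list was. The B cell list was called lower for 5 of 5 genes (median -1.35), and for 3 of 5 without saline 1 (median -1.28). Its sum was 42.8, 73.0, 9.78 and 60.8 FPKM in saline 1 to 4 and 3.61 to 21.3 in the LPS group, and none of its genes was at 0. The endothelial list was called lower for 3 of 10 genes (Kdr, Tie1 and Tek, median of the list -0.58) and lay at 3446 to 5696 FPKM in the saline group and 1535 to 3661 in the LPS group, with Cldn5 the most abundant and no gene at 0. The platelet list was called higher for 3 of the 4 genes tested (median 1.02), at 18.3 to 45.9 and 46.7 to 140.0 FPKM, led by Ppbp in the saline group and Pf4 in the LPS group, with Gp1bb listed at 0 in every library. The mast cell and basophil list had 1 gene called lower of 3 tested, Kit, its most abundant gene (median -0.52), while Tpsb2 or other mast cell genes were at 0 in 6 of the 10 libraries, and its sum was 83.1 to 104 and 26.3 to 47.6 FPKM. Kit alone was at 77.2 to 102 FPKM in the saline group and 23.9 to 45.2 in the LPS group. The sum thus describes Kit and not mast cells. None of the 4 T and NK cell genes tested was called (median -0.51, sums 6.89 to 20.5 and 3.04 to 10.7 FPKM, led by Nkg7 or Trac). Of the epithelial list, 2 of 5 genes were called lower, Sftpc and Scgb1a1 (median -0.64, sums 946 to 2447 and 163 to 632 FPKM, led by Sftpc), and 1 of 5 without saline 1 (median -0.44). Of the fibroblast and mural list, 1 of 6, Pdgfrb, was called lower (median -0.56, sums 29.0 to 55.8 and 17.3 to 41.8 FPKM, led by Pdgfrb or Col1a1), and 0 of 6 without saline 1 (median -0.44). The other 6 lists had the same number of called genes with and without saline 1. Calls in these lists were made by limma at an adjusted p of 0.05 and a log2 difference of 1 over all genes, where 11.9% of the genes tested were called higher and 6.79% lower.

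Summed over the 9 genes, the level was 302 FPKM in saline 1 and 44.9 to 69.3 in saline 2 to 4, against 1128 to 2683 in the LPS group. Divided by the sum of the pan-leukocyte list, the 9 genes stood at 1.33 in saline 1, at 0.361, 0.905 and 0.326 in saline 2 to 4 and at 1.62 to 1.91 in the LPS group. In the first experiment this quotient was thus higher in all 6 LPS libraries than in any saline library, with saline 1 the nearest. That order did not hold for the neutrophil or the monocyte and macrophage sums. Saline 1 had 302 FPKM of the 9 genes to 47.0 of the monocyte and macrophage list, and LPS 6 had 1128 to 333, a lower quotient. Saline 2 had 56.3 FPKM to 71.4 of the neutrophil list, and LPS 2 had 2683 to 6628, again a lower quotient. Markers of all leukocytes also count B cells. The B cell sum was 73.0 and 60.8 FPKM in saline 2 and 4, where the quotient over the pan-leukocyte sum was lowest. It was 42.8 in saline 1, 9.78 in saline 3 and 3.61 to 21.3 in the LPS group. The part of B cells in this quotient was not tested. In the second experiment the quotient over the pan-leukocyte sum was 1.29 to 1.51 in loxP/loxP mice and 1.35 to 1.72 in iΔEC/iΔEC mice. Tyrobp and Fcer1g made up 76.8% to 80.6% of the sum in the LPS group and 64.1% to 77.8% in the saline group.

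**Figure D4:**
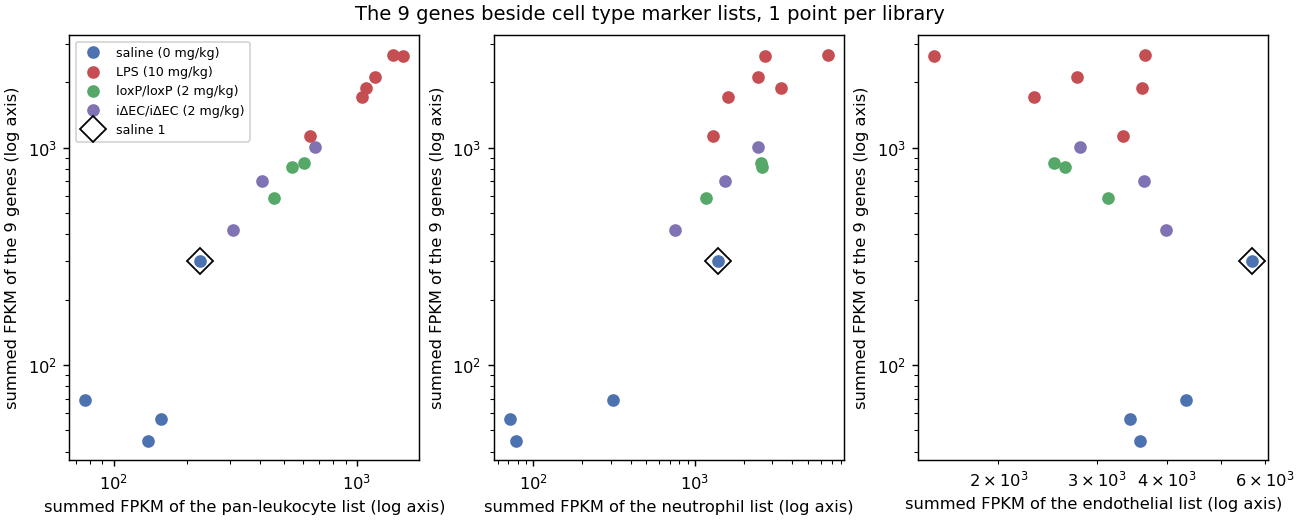
Summed FPKM of the 9 genes in each library (vertical, log axis) against the summed FPKM of the pan-leukocyte, neutrophil and endothelial lists (horizontal, log axes), with saline 1 framed; the first and second experiment were normalized separately. Saline 1 (302 FPKM for the 9 genes) lies between the other saline libraries (44.9 to 69.3) and the LPS libraries (1128 to 2683), and its neutrophil sum (1382) lies above that of LPS 6 (1285).

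Other genes of Fc receptor and ITAM signaling, 93 in 6 lists, were not part of the set. Of the 79 that passed the filter, 49 (62%) were called higher in LPS and 5 (6.3%) lower, where 11.9% and 6.79% of all genes tested were, with a median difference of 1.95 against 0.01 over all genes. The share of lower genes was thus near that of all genes. Of the 49 higher genes, 5 (Clec5a, Fcrlb, Lair1, Pigr and Pira2) had a saline mean under the filter of 0.5 FPKM and passed it through the LPS libraries. The lower genes were Cd79a, Fcer2a, Fcrla, Ighm and Plcg1. Without saline 1, 49 genes were called higher, 48 of them shared, and only Fcer2a and Plcg1 were called lower. Without saline 2 or without saline 4 only Plcg1 was, without saline 3 there were 7, and without LPS 5 there were 2. Differences of these genes are in log2(FPKM + 1), and adjusted p-values are from limma over all genes.

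Among receptors that signal through an ITAM, 12 of the 15 tested (of 19) were called higher and none lower. Treml4 rose from 2.06 ± 1.06 FPKM (SD, n = 4) to 140.4 ± 37.9 (SD, n = 6), by 5.55 (SE 0.27, limma adjusted p = 2.9e-07). Trem3 was higher by 5.10 (SE 0.51, limma adjusted p = 1.9e-05). The C-type lectins Clec4d and Clec4n, which sense fungal and mycobacterial glycolipids and mannans through Fcer1g, were higher by 4.55 and 4.47. Without saline 1 the differences were 5.74 for Trem3, 5.58 for Clec4d and 4.56 for Clec4n. Like Trem1, Clec4d varied widely within the saline group, from 0.254 to 29.5 FPKM. Clec7a, the beta-glucan receptor, did not pass with all 10 libraries (1.09, limma adjusted p = 0.0554) and was called without saline 1 (1.52, limma adjusted p = 0.0077), without LPS 6 (1.23, limma adjusted p = 0.0417), with the replicate block (1.40), by limma-voom (1.36) and with scaling on the endothelial list (1.70). Clec1b, the platelet receptor for podoplanin, had a difference of -0.51, short of the fold limit.

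Kinases and adaptors that act next to Syk were called higher for 16 of 26, and 1 was called lower. Fgr, a Src family kinase of myeloid cells, rose from 4.83 ± 2.69 to 125 ± 39.2 FPKM by 4.48 (SE 0.31, limma adjusted p = 1.7e-06). Lyn, which blood cells share more widely, rose by 1.49, while Fyn had a difference of 0.01 (limma adjusted p = 0.981). The Fyn difference was 0.31 without saline 1 (limma adjusted p = 0.028), -0.37 with quantile normalization and 0.67 with scaling on the endothelial list, all under the fold limit. The adaptors Lcp2 and Pik3ap1 were higher by 4.27 and 3.34. The phospholipases C that act downstream went opposite ways. Plcg1 fell by 1.46 (SE 0.14, limma adjusted p = 1.9e-05), from 49.7 ± 2.68 to 17.7 ± 3.30 FPKM, and Plcg2 rose by 2.51 (SE 0.29, limma adjusted p = 4.7e-05), from 7.51 ± 3.08 to 46.2 ± 13.0. Lyn and Plcg2 were chosen after their values were seen. Scaling on the endothelial list, which moves the median of all genes to 0.54, left Plcg1 at -0.80 and Plcg2 at 3.12. Gab2, a scaffold adaptor, did not pass (0.38, limma adjusted p = 0.104).

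Inhibitory receptors and phosphatases were called higher for 17 of 20 and lower for none, with a median of 2.98. Siglece, an inhibitory lectin of neutrophils and monocytes, rose from 2.07 ± 2.00 to 124 ± 40.5 FPKM, by 5.48 (SE 0.37, limma adjusted p = 1.6e-06). Dok2, Clec4a2 and Cd300a were higher by 4.48, 4.43 and 4.28. The phosphatase Inpp5d, which Fcgr2b recruits through its ITIM, differed by only 0.56 (limma adjusted p = 0.0275) and Ptpn11 by 0.43 (limma adjusted p = 0.00643), both under the fold limit of 1.

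The remaining lists held fewer called genes. Of the other ITAM and related chains, 6 of 7 were tested. Hcst, which couples receptors to phosphoinositide 3-kinase, rose by 1.60, Cd79a of the B cell receptor fell by 1.57 (SE 0.52, limma adjusted p = 0.0260), and Cd79b (-1.09) and Cd247 (-0.38) did not pass with all 10 libraries. Cd79b was called lower without saline 3 (-1.75, limma adjusted p = 0.00041), with quantile normalization (-1.47) and with scaling on total reads (-1.28). Of 7 other Fc receptors tested out of 12, 2 were called higher and 2 lower. Fcrlb rose by 2.22 and Pigr, the epithelial carrier of polymeric antibodies, by 1.32. Both passed the filter only through the LPS libraries (saline means of 0.396 and 0.0895 FPKM), and with a pseudocount of 0.1 FPKM the differences were 3.51 and 3.31. Fcer2a, the low-affinity IgE receptor of B cells, fell by 1.54 (limma adjusted p = 0.0250), and Fcrla, a B cell protein, fell by 1.20 (limma adjusted p = 0.0282). Fcgrt, the neonatal Fc receptor that endothelial cells use to recycle IgG, was at 33.5 ± 3.75 FPKM with saline (SD, n = 4) and 32.1 ± 4.86 in the LPS group (SD, n = 6), a difference of -0.07 (SE 0.13, limma adjusted p = 0.700). Its sign depended on the scaling. It was -0.50 with quantile normalization (limma adjusted p = 0.0060) and 0.60 with scaling on the endothelial list (limma adjusted p = 0.032), both under the fold limit. Trim21, a cytosolic Fc receptor, differed by -0.64, under the fold limit. Of the ligands, 5 of 9 were tested: Pglyrp1, a ligand of Trem1, rose by 2.75, Ighm fell by 1.62 (limma adjusted p = 0.0261), and the Trem2 ligands Apoe (0.46) and Clu (-0.90) were not called. Clu was called lower with quantile normalization (-1.40), with scaling on total reads (-1.09) and without LPS 2 (limma adjusted p = 0.0027). Groups overlapped for Cd79a, Fcer2a, Fcrla and Ighm, whose calls were lost without saline 2 or without saline 4, with no filter, with the replicate block and with scaling on the endothelial list. That scaling also brought Apoe (1.14), Inpp5d (1.22), Ptpn11 (1.08) and Gab2 (1.00) past both limits as higher.

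**Figure D5:**
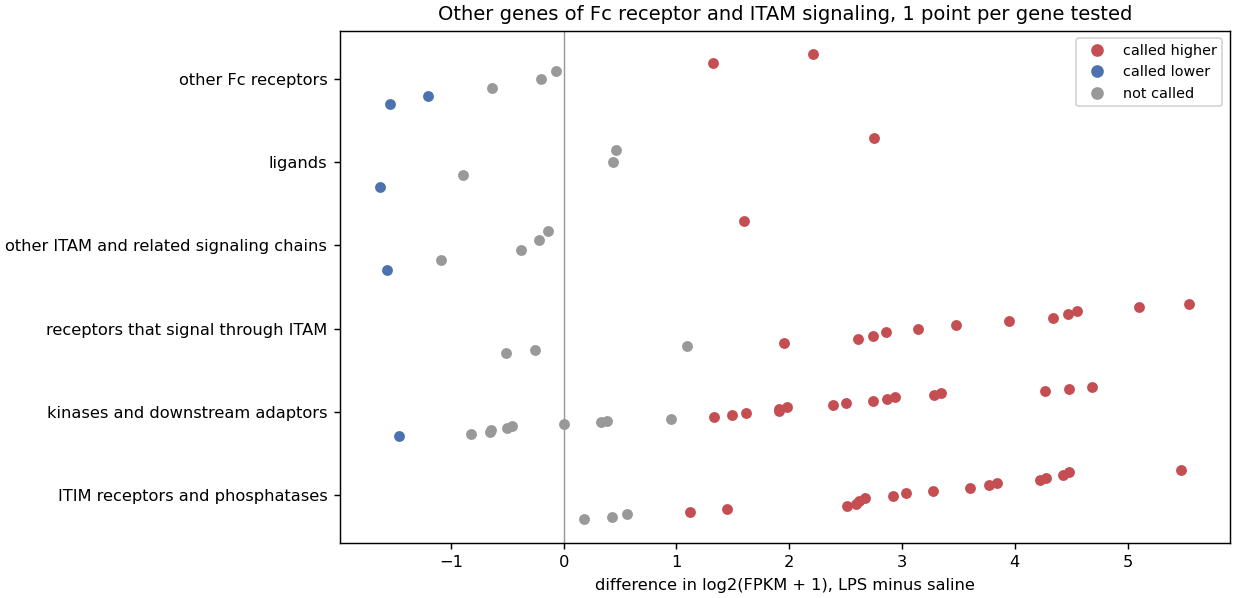
Differences in log2(FPKM + 1), LPS minus saline, of the 79 other genes of Fc receptor and ITAM signaling that were tested, 1 point per gene by list; red and blue mark genes called higher and lower by limma (adjusted p at or under 0.05 and a log2 difference of at least 1). Of these genes 49 are called higher and 5 lower, and the higher ones are mostly in the lists of receptors, kinases and inhibitors.

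The comparison of Fgfr1 iΔEC/iΔEC with loxP/loxP mice asked whether endothelial loss of Fgfr1 changes these genes when both genotypes have LPS. It was tested within the fit over 14944 genes. None of the 9 genes was called, and 0% of all genes were called at an adjusted p of 0.05 with or without the fold limit. The smallest limma adjusted p over all genes was 0.732, so the deleted gene Fgfr1 was not called either. The lack of a call thus does not show that the 9 genes were unchanged. At an unadjusted p under 0.05 limma gave 4.44% of all genes (663). The groups overlapped for all 9, where 10.2% of all genes had groups that did not overlap. The differences ran from -0.43 to 0.06 with a median of -0.13, against 0.01 over all genes, and limma adjusted p-values ran from 0.960 to 0.988.

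Among the IgG receptors, Fcgr1 was at 5.43, 7.24 and 3.85 FPKM in loxP/loxP 1 to 3 and at 4.53, 7.58 and 5.18 in iΔEC/iΔEC 1 to 3, a difference of 0.06 (95% interval -0.52 to 0.64, limma adjusted p = 0.987). Fcgr3 was at 47.8, 68.8 and 95.5 FPKM in loxP/loxP mice and at 28.6, 77.9 and 71.2 in iΔEC/iΔEC mice, a difference of -0.32 (-1.34 to 0.70, limma adjusted p = 0.967). The intervals of both hold 0, and that of Fcgr3 is wide enough to hold a halving of its level. Fcgr4 was at 28.6, 38.6 and 31.2 FPKM and at 21.5, 44.7 and 29.7, a difference of -0.09 (-0.72 to 0.55). The inhibitory Fcgr2b was at 20.5, 29.6 and 34.6 FPKM and at 14.5, 37.8 and 25.7, a difference of -0.18 (-1.03 to 0.67). In all of these except Fcgr1 the lowest of the 6 libraries was iΔEC/iΔEC 1.

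The signaling chains had the same pattern. Fcer1g was at 218, 329 and 245 FPKM in loxP/loxP 1 to 3 and at 158, 353 and 239 in iΔEC/iΔEC 1 to 3, a difference of -0.13 (95% interval -0.90 to 0.64, limma adjusted p = 0.975). Tyrobp was at 229, 321 and 318 FPKM and at 162, 427 and 282, a difference of -0.09 (-0.96 to 0.79, limma adjusted p = 0.988). Their group means were close, since high and low iΔEC/iΔEC libraries lay on both sides of the loxP/loxP range. Trem1 showed the largest difference of the 9, -0.43 (-1.40 to 0.53, limma adjusted p = 0.960), from 20.3, 34.1 and 44.9 FPKM to 13.8, 36.3 and 24.2. Trem2 was at 0.618, 0.911 and 0.601 FPKM and at 0.442, 0.775 and 0.634, a difference of -0.08 (-0.45 to 0.28). Syk was at 19.4, 22.2 and 43.4 FPKM and at 13.9, 26.9 and 24.4, a difference of -0.33 (-1.19 to 0.53), and its value in loxP/loxP 3 stood above the other 5 libraries.

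Within iΔEC/iΔEC mice, library 1 was the lowest and library 2 the highest for 9 of the 9 genes. Between libraries of the same number, iΔEC/iΔEC was lower for all 9 genes in pair 1, higher for 8 of 9 in pair 2 (all except Trem2) and lower for 7 of 9 in pair 3 (all except Fcgr1 and Trem2). The pan-leukocyte sums followed, at 458, 606 and 542 FPKM in loxP/loxP 1 to 3 and at 308, 674 and 410 in iΔEC/iΔEC 1 to 3. The neutrophil sums were 1173, 2554 and 2596 FPKM and 752, 2439 and 1541, and the monocyte and macrophage sums 186, 246 and 282 FPKM and 135, 333 and 222. None of the genes in any of the 10 marker lists was called between the genotypes. The part of leukocytes in these levels was not tested.

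Of the 93 other pathway genes, 86 were tested between the genotypes and none was called, and 16 of them had a difference above 0, where 53.4% of all genes did. The median was -0.22. Transcripts of IgG heavy chains, the ligands of these receptors, varied widely between libraries, and they were chosen for mention after their values were seen. Ighg2c ran from 5.37 to 101 FPKM in loxP/loxP mice and from 2.24 to 14.9 in iΔEC/iΔEC mice (difference -2.20, SE 1.07, limma adjusted p = 0.960). In the first experiment Ighg2c stayed under the filter, with at most 0.513 FPKM in a saline library and 0.0465 in an LPS library. The other chains of the IgE receptor that also uses Fcer1g, Fcer1a and Ms4a2, likewise stayed under the filter in both tables, and at most 0.682 and 0.781 FPKM were read for them in the first.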

How the data were processed

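RNA-seq was read from 16 libraries in 2 tables of 54532 genes. The authors aligned reads to GRCm38 (mm10) with HISAT2 2.0.5, counted them with featureCounts 1.5.0-p3 and deposited FPKM. The annotation release, strandedness and the treatment of multi-mapping reads are not given in the sources used here. FPKM times gene length gave whole reads (within 0.01) for 100.0% and 99.9% of values above 0, and median-of-ratios factors were already within the values (largest residual 0.18%), so FPKM was used as deposited. Of the gene identifiers, 54495 were found in GENCODE M21, 98.3% with the same start and end.

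In each table genes averaging 0.5 FPKM or more were compared on log2(FPKM + 1) with limma 3.58.1 in R 4.3.3 (lmFit, eBayes with intensity trend, two-sided), with Benjamini-Hochberg adjustment over all genes. A call needed an adjusted p of 0.05 or less with a log2 difference of 1 or more in either direction. FPKM is not a count, so the DESeq2 test that the authors used was not the main test. Groups follow the sample titles, which also give the replicate numbers, and p-values measure the spread between libraries. The titles do not say whether a library comes from a single mouse. Same-numbered libraries of the second table deviated together weakly (r = 0.248, 0.177 and 0.187 over genes, after centring each group on its mean). The titles give no pairing beyond the number, and so few libraries cannot establish one. Same-numbered libraries were therefore treated as paired only in an alternative fit. On simulated data with 4-fold changes (a log2 size of 2), 86.8% were recovered in the first design over 14724 genes, with 2 wrong calls. In the second design 92.1% were recovered over 14699 genes, with 15 wrong calls. These shares apply to the simulated spread between libraries, which was not compared here with the real spread. They are therefore not the power of the real comparisons, the second of which called 0 of 14944 genes. Intervals and read numbers cover counting and sample spread only, since reads are not independent molecules.

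The 9 genes, the gene lists and the tests were chosen with earlier results of these data known. Of each pathway list, up to 4 genes called in each direction with the largest difference and a group mean of at least 1 FPKM were named, with up to 2 uncalled genes of highest level. Some items that this rule would name are not reported here. Alternatives were another pseudocount, filters, scalings, limma-voom on the recovered reads, no intensity trend, the replicate block, no fold limit and leaving out each library. Tables were handled in Python 3.11.15 with pandas 2.3.3 and numpy 2.4.6, and figures drawn with matplotlib 3.10.9.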

Additional observations from a re-analysis of the deposited data

How the results depend on the processing

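The differences of the 9 genes between LPS and saline kept their direction under each alternative that gave a value (Trem2 fell under the filter with a mean of at least 2 FPKM and without LPS 1, LPS 2 or LPS 5), with Syk at 1.22 to 1.95 when 1 library was left out, and 6 of the 80 values from other settings moved beyond the spread between libraries, all under the pseudocount of 0.1 FPKM or limma-voom. Over all genes, those higher in LPS (1768) numbered 4172 with scaling on the endothelial list, which moved the median of all genes to 0.54, and 4399 with no fold limit. Those lower (1011) numbered 1840 with a pseudocount of 0.1 FPKM, 226 with the endothelial scaling, 2008 with limma-voom and 3529 with no fold limit. Pathway genes called lower (5) numbered 1 with no filter, 0 with the endothelial scaling, 11 with no fold limit and 1 to 7 when 1 library was left out, while those called higher stayed at 47 to 55. In the first table same-numbered libraries share only a number (r = 0.097, -0.162, -0.209 and -0.117), and the replicate block gave 51 pathway genes higher and 1 lower. In the second table the block changed no call, with limma adjusted p-values of 0.656 (Trem1) to 0.931 (Tyrobp) for the 9 genes, and 0 genes were called under any alternative.

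Between the genotypes no direction was stable apart from that of Trem1 (-0.75 to -0.08 when 1 library was left out). Leaving out 1 library gave -0.13 to 0.25 for Fcgr1, -0.49 to 0.17 for Fcgr2b, -0.58 to 0.13 for Fcgr3, -0.35 to 0.16 for Fcgr4, -0.41 to 0.16 for Fcer1g, -0.42 to 0.28 for Tyrobp, -0.15 to 0.0012 for Trem2 and -0.55 to 0.014 for Syk. Scaling on the endothelial list gave -0.15 for Fcgr1. Few reads lay behind Trem2 (10 to 18 per library in the saline group, 33 to 111 in the LPS group) and behind Fcgr1 in the saline group (22 to 37). The causes were not tested.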
